A study of Mus musculus with 6 samples.

Results

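T cell receptor beta segments are the gene pieces from which the beta chain of the alpha-beta T cell receptor is assembled. The beta segments were taken by symbol from the deposited count table, as all entries named Trbv, Trbd, Trbj or Trbc with a number. This gave 53 of the 54532 genes listed. They comprised 35 variable (V), 2 diversity (D), 14 joining (J) and 2 constant (C) segments. Of the 53 segments, 46 had a count in any library, and 40 had a summed count of at least 20 over the 6 libraries and were tested. The other 13 are all V segments and are accounted for below.

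The libraries were made from poly(A)-selected RNA of splenic CD4+ T cells. The cells came from wild-type C57BL/6J mice, kept specific pathogen-free, made colitic with dextran sulfate sodium (DSS) in their drinking water. In the Akkermansia group (Akk, n = 3) the mice received Akkermansia muciniphila, a mucin-degrading gut bacterium, every day. In the PBS group (Ctrl, n = 3) they received phosphate-buffered saline in its place. All mice of both groups had DSS and all libraries carry batch label 1. The sources used here do not give the animals' age or sex, how the cells were isolated or whether animals were pooled. The cell type entry of all 6 libraries is CD4+ T cells, whereas the descriptions of the libraries numbered 2 name CD5+ and those of the libraries numbered 3 name CD6+ T cells. Library totals were 15032257 to 15620607 counts in Akk and 15125188 to 16677923 counts in Ctrl. All 9 T cell markers examined were present, with a summed level of 3595 to 3873 counts scaled to library size (CPM) in Akk and 3281 to 3563 CPM in Ctrl. These markers include Trbc1 and Trbc2, which are themselves beta segments. Of the 9 markers, 2 were called higher and none lower by the test given below, beside 6.12% and 6.5% of all genes.

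During T cell development in the thymus, recombination joins 1 V, 1 D and 1 J segment of the beta locus into a single exon, and splicing then connects that exon to a C segment. The join of V, D and J forms the third complementarity-determining region, the part of the beta chain that varies most and that contacts the presented peptide. The mouse locus holds a row of V segments followed by a pair of D-J-C clusters. Trbd1, the Trbj1 segments and Trbc1 form the first cluster, and Trbd2, the Trbj2 segments and Trbc2 the second. Trbv31 lies after Trbc2 on the opposite strand. Each mature T cell carries its own rearrangement, so in bulk RNA the share of each segment is an average over many clones.

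The J segments are shown because the calls fell among them. They are read 5′ to 3′ from the GENCODE M21 transcripts, with capitals marking the codons of the Phe-Gly-X-Gly motif (searched on the sense strand only), by which J segments are recognised. The first 7 are the whole of the first cluster, and the last is the only segment of the second cluster that passed the test.
Trbj1-1: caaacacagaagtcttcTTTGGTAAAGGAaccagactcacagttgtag
Trbj1-2: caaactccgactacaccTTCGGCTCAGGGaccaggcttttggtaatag
Trbj1-3: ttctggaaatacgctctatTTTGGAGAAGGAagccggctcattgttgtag
Trbj1-4: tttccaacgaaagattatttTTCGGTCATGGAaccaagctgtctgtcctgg
Trbj1-5: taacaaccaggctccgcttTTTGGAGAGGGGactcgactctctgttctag
Trbj1-6: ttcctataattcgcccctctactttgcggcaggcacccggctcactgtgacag
Trbj1-7: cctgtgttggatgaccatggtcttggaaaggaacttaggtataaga
Trbj2-7: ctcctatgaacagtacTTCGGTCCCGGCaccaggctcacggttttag
The 14 J segments were 46 to 53 bases long, and 11 of 14 held the motif. Trbj1-6, Trbj1-7 and the pseudogene Trbj2-6 did not.

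With Akkermansia, 5 J segments were higher: Trbj1-3, Trbj1-4, Trbj1-5 and Trbj1-6 of the first cluster and Trbj2-7 of the second. No beta segment was lower. No V, D or C segment passed the test, and the summed level of both C segments was 855 ± 7.15 CPM in Akk and 810 ± 71.3 CPM in Ctrl (SD, n = 3 each). The order of V usage was alike in both groups, headed by Trbv13-2 in each. Calls are from edgeR's quasi-likelihood test adjusted by Benjamini-Hochberg across the 18213 genes tested, at a threshold of 0.05. By the same test 6.12% of all genes were called higher and 6.5% lower. Among the 40 tested beta segments 12.5% were called higher, among the 14 J segments 35.7%, and among the 22 V segments none.

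**Figure D1:**
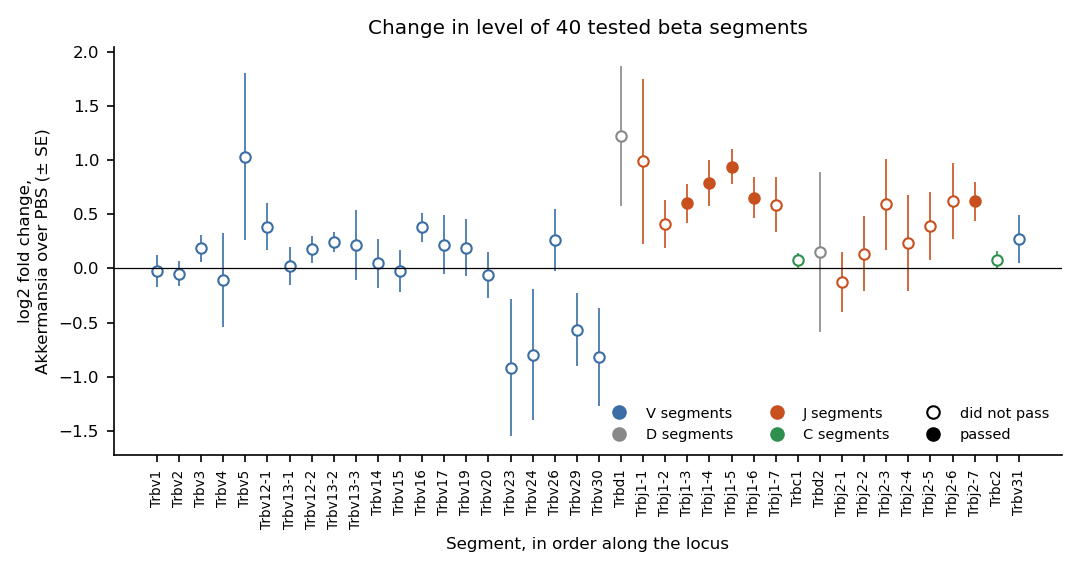
Log2 fold change in level, Akkermansia over PBS, of the 40 tested beta segments in their order along the locus (3 libraries per group). Points are edgeR estimates, bars are ± SE, and filled points passed the adjusted threshold of 0.05. The 5 filled points are J segments with log2 fold changes of 0.60 to 0.94. The 22 V segments lie between -0.92 and 1.03, all as open points.

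Trbj1-5 was the segment with the smallest p. Its levels were 13.7, 12.3 and 13.4 CPM in the Akk libraries and 7.94, 6.47 and 6.17 CPM in the Ctrl libraries. These rest on 217, 185 and 202 reads in Akk and 132, 99 and 101 reads in Ctrl, and the groups did not overlap. The log2 fold change was 0.94 ± 0.16 (SE), with an adjusted p of 0.00172 (edgeR).

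Trbj1-4 had 11.1, 7.81 and 10.2 CPM in Akk and 4.15, 6.87 and 5.81 CPM in Ctrl. The lowest Akk library lay close above the highest Ctrl library, and the log2 fold change was 0.79 ± 0.21 (SE, edgeR adjusted p = 0.0255). Trbj1-6, which lacks the motif, had 11.4, 9.35 and 9.09 CPM in Akk and 5.17, 7.39 and 6.42 CPM in Ctrl. Its groups did not overlap, and its log2 fold change was 0.65 ± 0.19 (SE, edgeR adjusted p = 0.0335).

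Trbj1-3 had 12.6, 10.6 and 14.7 CPM in Akk and 6.56, 8.89 and 9.59 CPM in Ctrl. It differed by 0.60 ± 0.18 on the log2 scale (SE, edgeR adjusted p = 0.0430), with no overlap. Trbj2-7, the most abundant J segment of the second cluster, had 12.1, 10.7 and 9.95 CPM in Akk and 7.82, 5.69 and 7.76 CPM in Ctrl. Its log2 fold change was 0.62 ± 0.18 (SE, edgeR adjusted p = 0.0337), again with no overlap. Of these 5 segments only Trbj1-5 passed whichever single library was left out. Without Akk 1, Akk 3 or Ctrl 1 it was the only beta segment called, and without Akk 2 only Trbj1-4 passed beside it. Trbj2-7 was also lost without Ctrl 2, and Trbj1-6 without Ctrl 3. Trbj1-5 alone passed when libraries were scaled to the CD3 chains, and Trbj1-5 and Trbj2-7 passed in limma on log2 FPKM.

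The other J segments did not pass. Trbj1-7 had 4.11, 3.67 and 5.51 CPM in Akk and 2.83, 2.81 and 3.18 CPM in Ctrl, which did not overlap, with a log2 fold change of 0.59 (edgeR adjusted p = 0.149). Trbj1-2 averaged 6.39 ± 1.30 CPM in Akk and 4.81 ± 0.70 CPM in Ctrl (SD, n = 3 each), with overlapping groups. Trbj1-1, the least abundant J segment, had 6, 12 and 9 reads in Akk and 1, 9 and 4 reads in Ctrl, and at that depth its log2 fold change of 0.99 carried an SE of 0.76.

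In the second cluster, Trbj2-1 alone had a fitted value below 0 (-0.13), at 2.46 ± 0.36 CPM in Akk and 2.68 ± 0.29 CPM in Ctrl (SD, n = 3 each). Trbj2-2, Trbj2-3, Trbj2-4, Trbj2-5 and Trbj2-6 had log2 fold changes of 0.14, 0.59, 0.23, 0.39 and 0.62, and of these only Trbj2-5 had groups that did not overlap. Its levels were 2.02, 2.14 and 2.39 CPM in Akk and 1.503, 1.96 and 1.53 CPM in Ctrl. Over the 14 J segments the fold change was above 0 in 13, with a median of 0.60 on the log2 scale. The median was 0.65 over the Trbj1 segments and 0.39 over the Trbj2 segments, against -0.01 over all genes tested. Groups did not overlap, with Akk higher, in 7 of 14 J segments (50%) and in 15.7% of all genes tested. The difference between the clusters was not tested segment by segment.

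**Figure D2:**
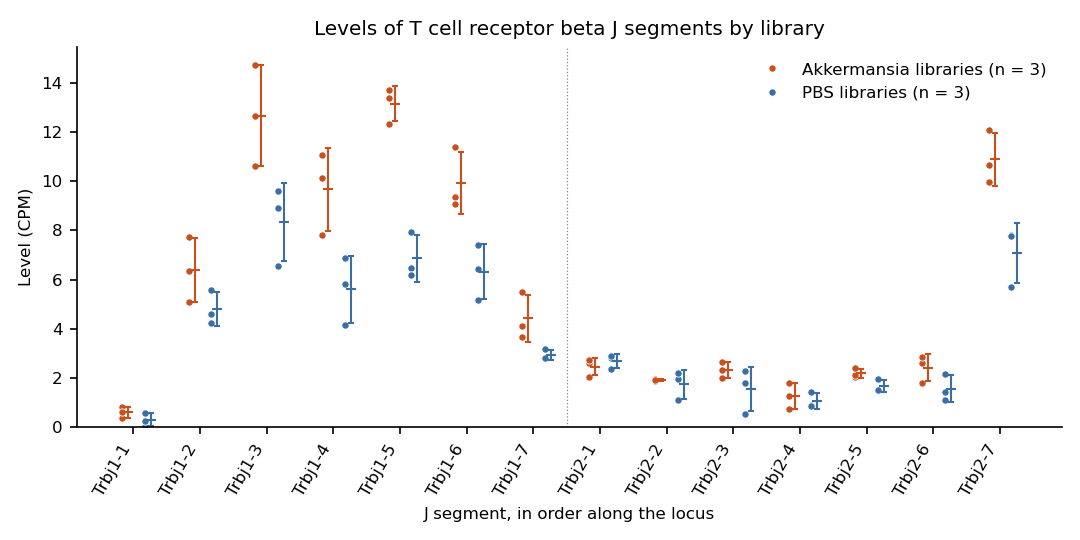
Level in CPM (TMM-scaled counts) of each J segment in every library. The Akkermansia libraries stand left of the PBS libraries, horizontal marks are means, bars are ± SD (n = 3 each), and the dotted line parts the Trbj1 from the Trbj2 cluster. Trbj1-5 sits at 12.3 to 13.7 CPM in Akkermansia and 6.17 to 7.94 CPM in PBS. Trbj2-7 stands above the other Trbj2 segments in both groups.

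Per length, the J segments covered a wide range of levels in both groups. In Akk the highest were Trbj1-5 at 263 ± 14.6 FPKM, Trbj1-3 at 235 ± 38.8 FPKM and Trbj2-7 at 232 ± 22.4 FPKM (SD, n = 3). In Ctrl they were Trbj1-3 at 154 ± 29.8 FPKM, Trbj2-7 at 150 ± 24.7 FPKM and Trbj1-5 at 137 ± 18.3 FPKM (SD, n = 3), so these neighbours lay within their spread in either group. Trbj1-1 was the lowest in both, at 12.4 ± 4.39 FPKM in Akk and 6.22 ± 5.64 FPKM in Ctrl. The first cluster took 69.9%, 67.7% and 71.1% of the summed J FPKM in Akk and 62.3%, 68.1% and 66.9% in Ctrl. The groups overlapped (difference 3.78 points, two-sided exact permutation p = 0.2, where 0.1 is the smallest value that 3 against 3 libraries allow). Trbj1-7 and Trbj2-6, 2 of the 3 segments without the motif, together made up 8.55 ± 0.65% of J counts in Akk and 8.59 ± 1.05% in Ctrl (SD, n = 3 each). Trbj1-6, the third, is annotated as a J gene and not as a pseudogene. It held 13.3%, 12.6% and 11.2% of J counts in Akk and 10.2%, 13.7% and 12.1% in Ctrl.

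J segments were then set against the V and C segments of the same locus. The summed level of J segments was 85.9, 74.0 and 81.1 CPM in Akk and 50.9, 53.9 and 52.9 CPM in Ctrl, a log2 ratio of 0.61. The summed level of V segments was 216, 215 and 223 CPM in Akk and 215, 206 and 181 CPM in Ctrl, a log2 ratio of 0.12 that turned to -0.036 when libraries were scaled to the summed counts of the CD3 chains. The J ratio was 0.46 under that scaling. In both classes every Akk library lay above every Ctrl library, for V by less than 1 CPM, and the two-sided exact permutation p was 0.1 for each, the smallest possible.

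Set directly against each other, there were 39.8, 34.4 and 36.4 J counts per 100 V counts in Akk and 23.7, 26.1 and 29.2 in Ctrl. The groups did not overlap (log2 ratio 0.49, two-sided exact permutation p = 0.1). Per 100 C counts there were 9.97, 8.73 and 9.47 J counts in Akk and 6.60, 6.03 and 6.90 in Ctrl (log2 ratio 0.53, exact permutation p = 0.1). V counts per 100 C counts were 25.5 ± 0.49 in Akk and 24.9 ± 2.60 in Ctrl (SD, n = 3 each, exact permutation p = 0.8), with overlapping groups. Within clusters, Trbj1 counts per 100 Trbc1 counts were 16.8 ± 1.33 in Akk and 10.9 ± 0.69 in Ctrl, and Trbj2 counts per 100 Trbc2 counts were 4.55 ± 0.29 in Akk and 3.597 ± 0.55 in Ctrl (SD, n = 3 each). Neither pair overlapped (exact permutation p = 0.1 for both). In all, 46 such single values were compared between the groups in this way, and at a smallest p of 0.1 none could pass 0.05, with or without adjustment.

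**Figure D3:**
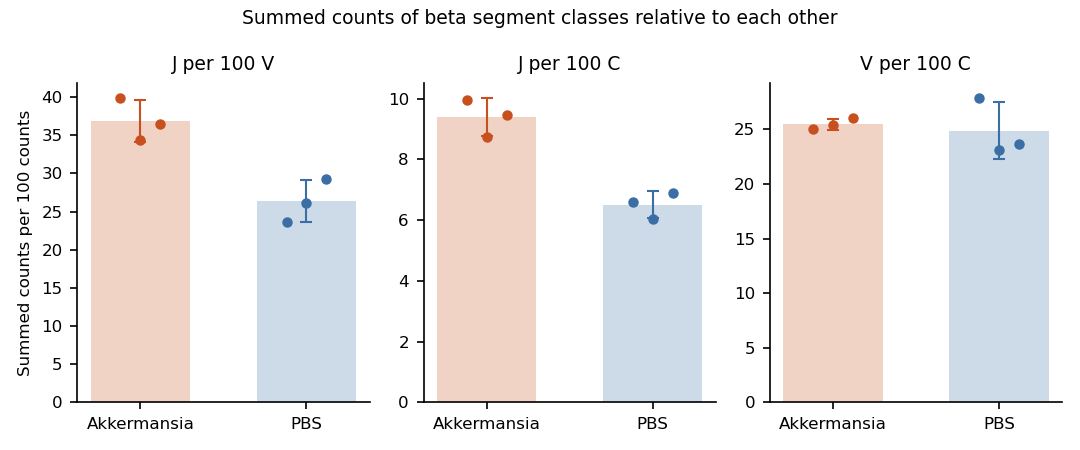
Summed counts of J per 100 V, J per 100 C and V per 100 C counts in each library (points), with group means (bars from 0) and ± SD (n = 3 each), Akkermansia left of PBS. The J values of Akkermansia lie above all PBS values in the first and second panels, while the V per C values overlap in the third.

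Summed V counts were also used as the library size in a second edgeR fit, so that a fold change became a change relative to all V transcripts. Under it the median log2 change of all genes was -0.14, and 1.84% of all genes were called higher and 8.13% lower. Trbj1-5 was the only J segment, and the only beta segment, that passed, with a log2 change of 0.82 ± 0.18 (SE, edgeR adjusted p = 0.00429). Trbj1-3 and Trbj2-7 also passed this fit without Ctrl 3, which made 3 beta segments. Trbj1-4 passed beside Trbj1-5 without Ctrl 2 and when the filter on low counts was lowered to 1 count in any library, 2 segments in each case. Of 22 V segments none passed in either direction, none at an unadjusted p under 0.05, and the lowest adjusted p was 0.22 (edgeR). For the 7 most used V segments the log2 changes lay between -0.17 (Trbv2) and 0.25 (Trbv16), with SE of 0.13 (Trbv13-2) to 0.18 (Trbv13-1). Under DESeq2 and limma-voom the same fit also called 0 V segments, although DESeq2 gave no result for the low-count Trbv5, Trbv23 and Trbv24.

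The V repertoire was broad and alike in its order. Usage is given as the share of a segment in the summed FPKM of all V segments of a library, which takes gene length into account. Trbv13-2, known by its older name Tcrb-V8.2, led in every library, with 18.7%, 20.3% and 19.8% in Akk and 16.6%, 17.2% and 20.5% in Ctrl. Its lowest value exceeded the highest value of any other V segment. Trbv1 (Tcrb-V2) followed with 11.9%, 11.97% and 10.4% in Akk and 14.8%, 12.1% and 10.7% in Ctrl, and the groups overlapped for both segments. Trbv16 (Tcrb-V11) came next by mean, with 10.8%, 10.1% and 8.07% in Akk and 6.46%, 8.70% and 9.27% in Ctrl. In Ctrl 1 it lay below Trbv3 (8.02%). Its place depends on the length correction. By share of V counts, Ctrl averaged 10.7% for Trbv2, 9.09% for Trbv3 and 8.16% for Trbv16. Akk averaged 9.50%, 9.51% and 9.71% for the same segments.

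The next rank held 4 segments. Trbv3 held 8.28 ± 1.02% in Akk and 7.93 ± 0.40% in Ctrl. Trbv12-2 held 7.82 ± 0.39% in Akk and 7.58 ± 0.88% in Ctrl. Trbv2 held 6.73 ± 0.59% in Akk and 7.58 ± 0.63% in Ctrl, and Trbv13-1 held 5.62 ± 0.54% in Akk and 5.98 ± 1.05% in Ctrl (SD, n = 3 each). The leading 7 segments took 68.5% of V usage averaged over the 6 libraries. Within this rank the ranges of neighbours overlapped in both groups, except those of Trbv12-2 and Trbv2 in Akk. Trbv20, Trbv15, Trbv31 and Trbv26 followed at 3.17% to 4.47% in Akk and 2.89% to 5.07% in Ctrl, on average. Trbv31, the segment on the opposite strand, had 3.68 ± 0.50% in Akk and 3.31 ± 0.90% in Ctrl.

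**Figure D4:**
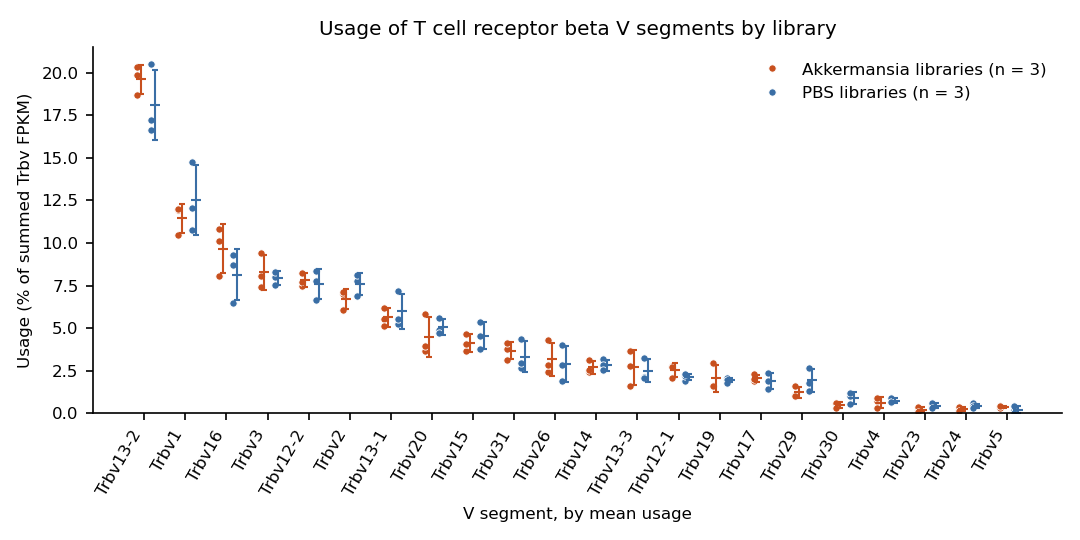
Usage of each tested V segment, as percent of the summed V FPKM of a library, for the 3 Akkermansia and 3 PBS libraries (points, with means and ± SD), ordered by mean usage, Akkermansia left of PBS. Trbv13-2 lies at 16.6% to 20.5% in all 6 libraries, and the points of the groups overlap for every segment.

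The usage of each of the 22 tested V segments overlapped between the groups. Non-overlap over all genes was counted on levels in CPM and not on shares, at 15.7% with Akk higher and 15.8% with Akk lower. By levels in CPM, the groups did not overlap in 4 of the 22 V segments (18.2%), all with Akk higher. The untested V segments had at most 18 reads over all libraries and 7 had none, so their overlap carries no information. Mean usage in Akk and in Ctrl correlated at a Pearson r of 0.991 and a Spearman rho of 0.990 over the 22 tested segments, which share 1 locus and 1 set of gene lengths. The effective number of V segments, the exponential of the Shannon entropy of usage, was 14.1, 14.0 and 14.6 in Akk and 15.1, 15.2 and 14.2 in Ctrl. The groups overlapped (difference -0.63, two-sided exact permutation p = 0.2). Among libraries of a group, V usage varied more than counting error alone would give: the variance of shares was a median of 2.45 times the counting variance in Akk and 3.55 times in Ctrl. Trbv19 was the most variable in Akk, with 78, 73 and 142 reads, and Trbv1 in Ctrl, with 556, 399 and 334 reads.

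Closely related V segments were read together, since reads could be divided between them. The ends of the Trbv12 and Trbv13 segments, the last 30 bases of each, show how alike they are where they meet the join. Capitals mark TGT, the codon of the conserved cysteine at which the third complementarity-determining region begins, found as the TGT of the last TGTGC on the sense strand.
Trbv12-1: tctgctatgtacttcTGTgccagctctctc
Trbv12-2: tctgccgtgtacttcTGTgccagctctctc
Trbv13-1: catctttgtacttcTGTgccagcagtgatg
Trbv13-2: catcagtgtacttcTGTgccagcggtgatg
Trbv13-3: cagctgtatatttcTGTgccagcagtgatg
Trbv12-1 and Trbv12-2 were identical at 88.31% of 385 aligned bases. Identity among the Trbv13 segments was 86.05% to 90.59%, with shared runs of at most 34 to 50 bases. The Trbv13 segments together took 27.9 ± 1.25% of V usage in Akk and 26.6 ± 1.84% in Ctrl, and the Trbv12 segments 10.4 ± 0.63% in Akk and 9.78 ± 1.17% in Ctrl (SD, n = 3 each). With each subfamily summed before the test, no V segment or subfamily was called.

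As levels rather than shares, V segments did not pass either. Trbv16 had 23.3, 22.0 and 18.1 CPM in Akk and 14.0, 18.0 and 16.8 CPM in Ctrl. The groups barely parted, at a log2 fold change of 0.38 ± 0.14 (SE, edgeR adjusted p = 0.0878). Trbv16 passed without Ctrl 2 and when the filter on low counts was lowered to 1 count in any library. Trbv13-2 had 34.3, 37.6 and 38.0 CPM in Akk and 30.7, 30.3 and 31.7 CPM in Ctrl, with no overlap (0.25 ± 0.09 on the log2 scale, SE, edgeR adjusted p = 0.0999). Trbv12-1 and Trbv12-2 were the other V segments whose groups did not overlap, at 0.39 and 0.18 (log2). These 4 of 22 V segments (18.2%) compare with 15.7% of all genes. Of the 22, 13 were above 0 and 9 below, with a median log2 fold change of 0.11.

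Of the 13 V segments that were not tested, 12 are pseudogenes in GENCODE. Trbv21, the exception, had 0, 0 and 4 reads in Akk and 7, 3 and 4 reads in Ctrl. Trbv12-3 had 9 reads in all, Trbv25 7, Trbv22 5, Trbv6 4 and Trbv10 1. Trbv7, Trbv8, Trbv9, Trbv11, Trbv18, Trbv27 and Trbv28 had none, which allows a share of up to 0.0152% of the 19689 V counts of all 6 libraries, counting error only. Trbv24 was the only tested V segment annotated as a pseudogene there, and all 13 V pseudogenes together took 0.36 ± 0.20% of V usage in Akk and 0.64 ± 0.06% in Ctrl (SD, n = 3 each). The groups overlapped only by Akk 1 (0.574%) against Ctrl 2 (0.572%). In Akk 1, 0.30% came from the 7 reads of Trbv25, which no other library had.

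Few reads were assigned to the D segments, 12 and 14 bases long by the deposited FPKM. Trbd1 had 10, 16 and 10 reads in Akk and 8, 6 and 2 reads in Ctrl. The groups did not overlap, but the log2 fold change of 1.23 had an SE of 0.65 (edgeR adjusted p = 0.249). Trbd2 had 9, 2 and 6 reads in Akk and 7, 4 and 5 reads in Ctrl, and its log2 fold change of 0.15 had an SE of 0.74 and changed sign with the tool.

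The C segments, which encode the constant domain and the membrane anchor of the beta chain, carried 74.1 ± 0.37% of beta counts in Akk and 76.1 ± 1.59% in Ctrl (SD, n = 3 each). Trbc1 had 351, 334 and 332 CPM in Akk and 316, 340 and 310 CPM in Ctrl (log2 0.07 ± 0.07, SE, edgeR adjusted p = 0.550). Trbc2 had 510.5, 513 and 526 CPM in Akk and 456, 553 and 456 CPM in Ctrl (log2 0.08 ± 0.08, SE, edgeR adjusted p = 0.585). Both fold changes turned negative when libraries were scaled to the CD3 chains. The segments were identical at 86.98% of 676 aligned bases and shared a run of 259 bases, so the division of reads between them is uncertain. Per length, Trbc1 took 37.8 ± 1.02% of the summed C FPKM in Akk and 38.0 ± 1.48% in Ctrl (SD, n = 3 each, exact permutation p = 0.9).

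The alpha locus, whose J segments (Traj) join directly to V segments (Trav), was measured in the same libraries. Of 50 tested Traj segments 10 (20%) were called higher and none lower by edgeR, with a median log2 fold change of 0.66. Over all genes tested, 6.12% were called higher and 6.5% lower. Of 70 tested Trav segments none passed, at a median of -0.09, although 3 had an unadjusted p under 0.05. Their log2 fold changes ranged from -6.75 to 1.31. Groups did not overlap in 4 Trav segments with Akk higher and in 4 with Akk lower, beside 15.7% and 15.8% of all genes. The alpha constant segment Trac had 557 ± 18.0 CPM in Akk and 594 ± 24.2 CPM in Ctrl (SD, n = 3 each, edgeR adjusted p = 0.427). There were 208, 209 and 177 Traj counts per 100 Trav counts in Akk and 94.3, 153 and 117 in Ctrl, without overlap (exact permutation p = 0.1).

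The beta chain reaches the cell surface only with the alpha chain and the CD3 proteins. Of 17 tested genes of the receptor complex and its first signalling steps, 5 rose and none fell. The share over all genes was 6.12% called higher and 6.5% called lower. Cd3e rose by 0.24 (log2, edgeR adjusted p = 0.0317), at 332 ± 5.54 CPM in Akk and 280 ± 16.2 CPM in Ctrl (SD, n = 3 each). Cd3g, Cd3d and Cd247 did not pass, at 0.18, 0.11 and 0.08 on the log2 scale. Cd4, the coreceptor that binds MHC class II, had 884 ± 30.1 CPM in Akk and 685 ± 31.7 CPM in Ctrl (SD, n = 3 each, log2 0.37, edgeR adjusted p = 0.00317). Lck, the kinase that phosphorylates the CD3 chains, rose by 0.33, and Cd5, a receptor that dampens signalling, by 0.34 (log2). Their edgeR adjusted p-values were 0.00486 and 0.0128.

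Of 10 tested genes of V(D)J recombination, 2 rose and none fell, beside 6.12% of all genes called higher and 6.5% lower. Dntt, terminal transferase, which adds untemplated bases at the V-D-J joins, had 5.69, 5.34 and 6.97 CPM in Akk and 3.85, 2.09 and 3.67 CPM in Ctrl (log2 0.90 ± 0.26, SE, edgeR adjusted p = 0.0351). Prkdc, the catalytic subunit of the DNA-dependent protein kinase that repairs the cut ends, rose by 0.29 (log2, edgeR adjusted p = 0.0287). Rag2, a subunit of the recombinase that cuts the segments, had no count in any library. Rag1 had 0, 0.13 and 0 CPM in Akk and 0.66, 0 and 0.12 CPM in Ctrl, below the count needed for a test.

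Markers of other lymphocytes moved in the same libraries. For the counts of markers given here and below, the shares over all genes were 6.12% called higher and 6.5% called lower. Cd8a had 33.5, 51.9 and 31.0 CPM in Akk and 8.12, 7.13 and 9.41 CPM in Ctrl. Both CD8 T cell markers rose, at a summed 61.3 to 93.4 CPM in Akk and 19.1 to 20.1 CPM in Ctrl. All 10 B cell markers rose, Pax5 by 1.26 (log2), at a summed 389 to 522 CPM in Akk and 185 to 202 CPM in Ctrl. Of 6 NK cell markers 4 rose (40.5 to 48.7 CPM in Akk, 27.5 to 31.3 CPM in Ctrl).

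Of 7 tested gamma-delta T cell markers 1 rose, at a summed 26.2 to 30.6 CPM in Akk and 16.5 to 20.9 CPM in Ctrl. Of 3 tested NKT and MAIT cell markers none rose (14.9 to 19.7 CPM in Akk, 12.5 to 21.5 CPM in Ctrl). Of 5 monocyte and macrophage markers 1 rose (287 to 308 CPM in Akk, 190 to 245 CPM in Ctrl), and of 6 neutrophil markers 1 rose (72.8 to 163 CPM in Akk, 13.2 to 55.2 CPM in Ctrl). No marker found was at 0 in all libraries. Of 4 CD4 T cell markers 2 rose and 1 fell (1184 to 1339 CPM in Akk, 1213 to 1339 CPM in Ctrl). The part of these cells in the J segment levels was not tested, and in bulk RNA fewer cells of a type and less RNA per cell cannot be told apart.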

How the data were processed

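Whole-number raw counts and FPKM rounded to 2 decimals are the authors' deposited values. Reads were placed on GRCm39, per the submitters' processing notes. The sources used here do not give the aligner, counter, annotation or strand setting, so overlapping and antisense transcripts cannot be separated, and a J segment shorter than a read could gain or lose reads by the counting rule. The FPKM of J and D segments are large because these segments are short.

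Genes with a summed count of at least 20 (18213) were tested with edgeR 4.0.16 in R 4.3.3 (robust quasi-likelihood F test, two-sided, TMM scaling, no covariate, threshold 0.05). A second fit used summed V counts as library size. CPM are counts scaled to library size with TMM factors; SE is the log2 fold change divided by the square root of F. A floor of 3 counts equals 0.18 to 0.20 CPM. The procedure was tested on simulated data. The members and lists were chosen with earlier results of these data known. Named were all tested beta segments and, of the lists, the CD3 chains, Trac, up to 4 called members each, Cd8a, Cd8b1 and Pax5, of which some genes are not reported here; Rag1, Rag2 and untested segments were named after their values were seen. The gamma-delta marker Scart2 was not found.

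Sequences are from GENCODE M21, matched by Ensembl ID for 53 of 53 segments and compared by alignment in Biopython. That release describes another build, so no positions are printed. Older names are from RefSeq. Single values were compared by exact permutation. Within groups, pairs of libraries showed 4.53 to 19.9 times the variance of sampling per gene, so none was counted as a repeat. The design text calls the libraries biological replicates. Libraries of the same number deviated together only weakly (correlations of 0.045, 0.042 and 0.019, against -0.038 to 0.0004 for pairs of unlike number). The design names no pairing, so the main fit has no replicate block. Alternatives were DESeq2 1.42.0, limma 3.58.1 (voom, and log2(FPKM + 1) or log2(FPKM + 0.1)), other filters, scalings and a replicate block, plus fits without each library in turn. The ratios of J to V and J to C counts were chosen after the data were seen.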

Additional observations from a re-analysis of the deposited data

How the results depend on the processing

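The 5 J segments were called higher, and no beta segment lower, with DESeq2, limma-voom, filterByExpr, RLE factors, library totals and the replicate block. Of the D and J segments, DESeq2 and filterByExpr gave no result for the low-count Trbd1, Trbd2 and Trbj1-1. With genes of at least 1 count in any library Trbv16 was added. The count called higher fell to 1 with scaling to the CD3 chains, which moves the median of all genes to -0.17, and to 2 with log2(FPKM + 1) or log2(FPKM + 0.1). Leaving out each library gave 1 to 5. The 5 called without Ctrl 2 were 4 of these J segments and Trbv16. Trbj1-5 passed in every one of these settings. Trbj1-3, Trbj1-4, Trbj1-6 and Trbj2-7 reached adjusted p-values of up to 0.198, 0.126, 0.162 and 0.140 with a library left out; these fits rest on 5 libraries, and the cause was not tested further. The replicate block called 5 beta segments higher and 0 lower; each Akk library correlated best with the Ctrl library of its own number, a hint from the data and not from the design, and in the fit relative to V counts the block added Trbj1-4, for 2 called.

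With CD3 scaling the summed log2 ratios were -0.036 for V, 0.46 for J and -0.075 for C, and Trbc1 (-0.081), Trbc2 (-0.071), Trbd2 (-0.0022) and Trbj2-2 (-0.024) changed sign. Trbd2 also did so with limma-voom (-0.0095), log2(FPKM + 1) (-0.034) and log2(FPKM + 0.1) (-0.046). With a library left out the log2 range crossed 0 for Trbd2 (-0.31 to 0.54), Trbj2-2 (-0.12 to 0.34) and Trbj2-4 (-0.098 to 0.51). The same held for the V shares of Trbv1 (-0.23 to 0.0094), Trbv3 (-0.031 to 0.14), Trbv4 (-0.57 to 0.12), Trbv13-1 (-0.18 to 0.068), Trbv12-2 (-0.037 to 0.13), Trbv13-3 (-0.18 to 0.37), Trbv14 (-0.19 to 0.028), Trbv17 (-0.049 to 0.31), Trbv19 (-0.29 to 0.23) and Trbv26 (-0.13 to 0.45), none of which passed a test. No V share was called in any alternative, where DESeq2 gave no result for Trbv5, Trbv23 and Trbv24. Depth limits the J segments, with 1 to 222 reads each per library.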

Other observations

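The tested V segments with the lowest fold changes lay near one another in the locus order. Trbv23, Trbv24, Trbv29 and Trbv30 had log2 fold changes in level of -0.92, -0.80, -0.57 and -0.82, none of which passed (edgeR adjusted p of 0.399, 0.447, 0.313 and 0.278). Trbv23 had 5, 11 and 3 reads in Akk and 13, 17 and 8 reads in Ctrl. Trbv24 had 6, 10 and 4 reads in Akk and 18, 11 and 8 reads in Ctrl. Trbv29 had 48, 30 and 31 reads in Akk and 85, 50 and 35 reads in Ctrl. Trbv30 had 15, 17 and 9 reads in Akk and 31, 32 and 13 reads in Ctrl. Trbv26, which lies between them, had 0.26. This group was picked after its values were seen and the position was not tested.

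All 7 reads of the pseudogene Trbv25 were in the library Akk 1, and the other 5 libraries had none.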
